A study of Mus musculus with 12 samples.

Results

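The de novo DNA methyltransferase family of the mouse comprises 4 genes, Dnmt3a, Dnmt3b, Dnmt3c and Dnmt3l, which were followed in male germ cells at 4 stages of development. The members were found by matching the Ensembl identifiers of the deposited RNA sequencing table to gene symbols, and they are 4 of its 55487 genes. All 4 passed the filter for testing, which asked for 10 normalized counts or more in 3 or more libraries and kept 22384 genes. The cells are gonocytes, as testis germ cells are called until they become spermatogonia, taken from mice that carry the Mvh-Venus transgene, in which regulatory sequence of the germ cell gene Mvh (also named Ddx4) drives a fluorescent protein. There were 3 libraries from each of 2 fetal stages, E13.5 and E16.5, and 3 from each of 2 stages from birth on, P0 and P3. Every title and source name says WT, whereas the genotype tag reads Morc1 (+/-) at E13.5 and P0 and Morc1 (-/-) at E16.5 and P3. If the tag were right, stage and genotype could not be told apart between consecutive stages or for P3 against E13.5, while P0 against E13.5 and P3 against E16.5 stay within a tag. The strain, the number of animals in a library and whether libraries came from separate animals are not given in the sources used here, so p-values measure the spread between these libraries, which may be technical.

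De novo methyltransferases place methyl groups on cytosines of CG pairs that carry none on either strand, in contrast to Dnmt1, which copies existing methylation after replication. DNMT3A and DNMT3B are the widely used enzymes. DNMT3L has no catalytic activity of its own and binds and stimulates them. DNMT3C is a rodent enzyme that arose from a copy of Dnmt3b and methylates promoters of young retrotransposons in the male germ line. Germ cells lose most of their methylation on the way to the fetal gonad, and male germ cells regain it while arrested in the fetal testis.

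On GRCm38 with GENCODE M21, all 4 genes are protein coding and lie on the plus strand. Dnmt3a (ENSMUSG00000020661) spans chr12:3806007-3914443 and Dnmt3l (ENSMUSG00000000730) spans chr10:78041947-78063622. Dnmt3b (ENSMUSG00000027478) spans chr2:153649450-153687730, and Dnmt3c (ENSMUSG00000082079) follows it on the same strand at chr2:153696652-153729907. The union of annotated exons covers 16642 bases for Dnmt3a, 5106 for Dnmt3b, 2223 for Dnmt3c and 2988 for Dnmt3l. The single annotated Dnmt3c transcript holds only 3 bases outside its coding sequence, so reads from any untranslated exons of Dnmt3c would not be counted under this annotation.

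The 4 coding sequences are shown over the same window of 60 bases, the aligned stretch with the most positions identical in all 4. It was chosen for likeness, so the differences in it do not measure how close the whole sequences are. Capitals mark bases that differ from Dnmt3b, and positions count from 1 at the first base of each coding sequence. The window runs from 1569 to 1628 in Dnmt3a, from 1419 to 1478 in Dnmt3b, from 1062 to 1121 in Dnmt3c and from 360 to 419 in Dnmt3l.
Dnmt3a: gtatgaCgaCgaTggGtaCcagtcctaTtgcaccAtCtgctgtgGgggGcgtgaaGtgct
Dnmt3b: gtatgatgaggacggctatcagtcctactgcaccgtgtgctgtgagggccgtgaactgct
Dnmt3c: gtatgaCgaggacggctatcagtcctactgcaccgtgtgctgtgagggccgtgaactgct
Dnmt3l: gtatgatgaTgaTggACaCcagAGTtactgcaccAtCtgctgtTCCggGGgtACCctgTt
In these 60 bases Dnmt3c differed from Dnmt3b at 1 position, Dnmt3a at 11 and Dnmt3l at 19, and 38 positions were the same in all 4. Within the best local alignment the identity was 93.28% between Dnmt3b and Dnmt3c (1652 bases, from 866 to 2580 of Dnmt3b and from 569 to 2220 of Dnmt3c) and 74.46% between Dnmt3a and Dnmt3b (1151 bases). The coding sequence before these stretches is not part of that identity, and neither are gaps. The longest gap is at bases 1087 to 1146 of Dnmt3b, which have no counterpart in Dnmt3c. Dnmt3l aligned with the others over 132 to 195 bases only, with identities of 68.72% to 72.73%.

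Dnmt3b and Dnmt3c are close enough for reads to match both, which bears on every comparison between them. Their longest identical run is 287 coding bases, from 2167 to 2453 in Dnmt3b and from 1807 to 2093 in Dnmt3c, shown here as the stretch in which no short read can tell them apart.
Dnmt3b and Dnmt3c: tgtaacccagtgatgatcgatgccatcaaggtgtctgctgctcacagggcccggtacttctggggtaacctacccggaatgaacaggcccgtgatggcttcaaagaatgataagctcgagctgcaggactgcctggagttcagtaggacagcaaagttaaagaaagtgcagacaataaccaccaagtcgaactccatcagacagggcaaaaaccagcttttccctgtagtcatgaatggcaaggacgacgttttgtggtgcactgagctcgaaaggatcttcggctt
The 60 bases shown next are from the stretch where they differ most, which lies before the local alignment, at positions 480 to 539 of Dnmt3b and 339 to 398 of Dnmt3c, with the 19 differences in capitals.
Dnmt3b: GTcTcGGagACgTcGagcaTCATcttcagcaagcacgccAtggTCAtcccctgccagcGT
Dnmt3c: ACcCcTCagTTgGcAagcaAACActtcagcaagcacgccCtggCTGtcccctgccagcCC
Words of 50 bases were taken from 1 transcript per gene, that with the longest coding sequence, and searched in the annotated transcripts of all other genes. Of these words, 13.6% of those of Dnmt3b (486 of 3581) also occur in Dnmt3c, and 23.6% of those of Dnmt3c (514 of 2174) also occur in Dnmt3b. Dnmt3a and Dnmt3l shared 0 such words with transcripts of other genes. How the authors' counting treated reads that match several genes is not given in the sources used here, so the Dnmt3b and Dnmt3c values are uncertain by the reads from shared words.

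Promoter sequence, from RefSeq on GRCm38.p6, is shown for the 3 members that have an entry, because CG pairs are the substrate of this family. Each window holds the 250 bases before an annotated start site, on the plus strand, with CG pairs in capitals. The windows are chr12:3806730-3806979 for Dnmt3a, chr2:153649199-153649448 for Dnmt3b and chr10:78049592-78049841 for Dnmt3l.
Dnmt3a: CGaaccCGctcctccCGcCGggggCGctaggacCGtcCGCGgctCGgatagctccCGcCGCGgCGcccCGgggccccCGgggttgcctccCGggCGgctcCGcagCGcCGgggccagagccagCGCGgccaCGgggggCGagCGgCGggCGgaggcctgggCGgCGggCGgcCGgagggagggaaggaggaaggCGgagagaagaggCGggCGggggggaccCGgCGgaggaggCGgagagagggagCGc
Dnmt3b: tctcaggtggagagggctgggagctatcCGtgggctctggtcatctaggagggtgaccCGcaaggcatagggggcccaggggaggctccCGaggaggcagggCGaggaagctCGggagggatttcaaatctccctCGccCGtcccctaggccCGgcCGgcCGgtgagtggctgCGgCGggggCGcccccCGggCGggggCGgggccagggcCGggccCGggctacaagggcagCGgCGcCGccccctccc
Dnmt3l: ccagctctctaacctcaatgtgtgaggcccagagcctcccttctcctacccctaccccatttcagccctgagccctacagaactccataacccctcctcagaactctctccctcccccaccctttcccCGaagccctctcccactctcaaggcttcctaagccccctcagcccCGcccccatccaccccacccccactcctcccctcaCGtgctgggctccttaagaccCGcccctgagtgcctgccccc
The Dnmt3a window held 38 CG pairs, a number reached by 1.88% of 32851 such windows in the genome, and the Dnmt3b window held 21, reached by 16.3%. The Dnmt3l window held 4, reached by 62.2%, and the median of all windows was 6. The Dnmt3a window shown is that of the most upstream start. The other Dnmt3a windows, chr12:3806910-3807159 and chr12:3891494-3891743, had 40 and 15 CG pairs, reached by 1.31% and 27.3% of windows. The other Dnmt3l starts had 5 and 3, reached by 55.6% and 71.0%. Which start these cells used was not tested. The motif GGGCGG, searched on both strands, was found 5 times in the Dnmt3a window, 3 times in that of Dnmt3b and 2 times in that of Dnmt3l, and 32.7% of all windows hold it. The other Dnmt3a starts held it 4 times and 1 time, and the other Dnmt3l starts 0 times each. No methylation or binding was measured at these windows in the table used here.

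Reads assigned to genes numbered 40946616 to 51533747 per library, and the unit used throughout is the read count divided by the size factor of its library, called a normalized count. The size factors were 0.919 to 1.263 at the other stages and 1.84 to 2.072 at P0. A setting with equal library totals in place of these factors moves the median over all genes of the log2 fold change by 0.53 for E16.5 against E13.5, 0.69 for P0 against E16.5 and -0.91 for P3 against P0. With it, 55.6% of all genes tested were called higher and 23.7% lower in the first of these comparisons, 54.9% and 14.8% in the second and 19.7% and 58.4% in the third, so small changes depend on the scaling. The median moved by 1.31 for P0 against E13.5 and by 0.31 for P3 against E13.5, with 66.2% higher and 19.6% lower in the former and 46.8% and 21.1% in the latter. Median-of-ratios factors gave 37.6% and 25.5% for P0 against E16.5 and 29.4% and 47.1% for P3 against P0. The germ cell markers Ddx4, Dazl, Mael, Dnd1 and Tdrd1 were present in all libraries, with summed normalized counts of 226300 to 257800 at E13.5, E16.5 and P3 and 133700 to 142200 at P0, without overlap. Single markers did not follow the sum. From E13.5 to E16.5 the mean of Dazl went from 139000 to 35950 and that of Ddx4 from 58930 to 49640. Over the same step Mael went from 14370 to 76210, Dnd1 from 34370 to 69580 and Tdrd1 from 2514 to 17680. Marker sums of other testis cells were lower and moved with stage. The 4 Sertoli genes summed to 705.6 to 1232 for E13.5, 1043 to 2022 for E16.5, 2367 to 4135 for P0 and 876 to 1363 for P3, and the 5 Leydig genes reached 7681 in library 4 of E16.5 and 6106 in library 1 of P0. The 3 peritubular genes summed to 2832 to 3153 at P0 and to 159.4 to 1331 elsewhere, and the 4 mast cell genes to 998.6 to 2277 at P0, with all 4 at 0 in every E13.5 library. The 5 blood genes summed to 33.65 to 385.2 for E13.5, 242.4 to 1024 for E16.5, 394.3 to 1199 for P0 and 77.52 to 214.6 for P3. The sum of the 4 macrophage and endothelial genes went the other way from the family between the fetal stages, from 4350 to 5102 at E13.5 to 340.7 to 499.3 at E16.5. It was 634.2 to 745.6 at P0 and 410.9 to 514.2 at P3. Most of the E13.5 sum was Pecam1, which germ cells of the fetal gonad also express, with 4326 to 5074 at E13.5 and 211.8 to 359.8 at E16.5. Only Pecam1 fell there, since the stage means of Csf1r (8.79 to 57.3), Adgre1 (2.13 to 47.5) and Cdh5 (9.92 to 29.8) rose. The part of these cells in the values of the family was not tested. In such bulk libraries, fewer cells of a type and less RNA per cell cannot be told apart.

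Dnmt3a, a catalytic enzyme, was highest at E16.5. Its normalized counts were 5427, 5169.85 and 5165 in the E13.5 libraries (libraries 1, 3 and 4 here and below), 57584, 52667 and 48163 at E16.5, 20178.5, 19491 and 19709 in those of P0, and 13160.5, 13189 and 14540.3 at P3. The order of the stages was E16.5, P0, P3, E13.5, and no 2 stages overlapped. The stage means, each over n = 3 with the SD, were 5254 ± 150 for E13.5, 52805 ± 4712 for E16.5, 19793 ± 351 for P0, 13629.9 ± 789 for P3. Dnmt3a thus rose 10.05-fold to E16.5 and then fell by stages to 25.81% of that level at P3.

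Dnmt3l, the cofactor, went from near absence to its highest level between E13.5 and E16.5, 1146-fold. It had 22, 16 and 12 reads at E13.5, with exact Poisson 95% intervals of 13.79 to 33.31, 9.145 to 25.98 and 6.201 to 20.96, which cover counting error only. The normalized counts were 23.2, 17.4 and 12.6 in the E13.5 libraries, 22397, 19541 and 19086 at E16.5, 7139, 6195 and 6521 in those of P0, and 564, 513.6 and 502.1 at P3. No 2 stages overlapped, and the order of the stages was the same as for Dnmt3a. Its mean of 17.8 ± 5.31 at E13.5 (SD, n = 3) compared with 20342 ± 1795 for E16.5, 6619 ± 479 for P0 and 526.5 ± 32.9 for P3. At P3 Dnmt3l stood at 2.589% of its highest stage, against 25.81% for Dnmt3a, and yet 29.7-fold above E13.5.

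Dnmt3c, the enzyme of young retrotransposon promoters, was high at E16.5 and P0 only. Its normalized counts were 48.6, 18.5 and 45.2 in the E13.5 libraries, 2341, 2303 and 2049 at E16.5, 613, 550.5 and 556 in those of P0, and 32.0, 44.2 and 35.4 at P3. The E13.5 and P3 libraries overlapped, and every E16.5 and P0 library stood above them. Its mean of 37.4 ± 16.48 for E13.5 (SD, n = 3) was followed by 2231 ± 159 for E16.5, 573.2 ± 34.6 for P0 and 37.2 ± 6.30 for P3. Both ends of the series lay near 1.67% of the E16.5 level, resting on 17 to 46 reads per library.

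Dnmt3b, the second catalytic enzyme, had another order of stages. Its normalized counts were 305.1, 193.7 and 316.5 in the E13.5 libraries, 574.5, 565.3 and 455.1 at E16.5, 469.9, 380.9 and 371.6 in those of P0, and 1901, 1865 and 2181 at P3. All P3 libraries stood above all others, E16.5 and P0 overlapped, and E13.5 was the lowest. Mean levels were 271.8 ± 67.9 for E13.5, 531.6 ± 66.4 for E16.5, 407.5 ± 54.3 for P0 and 1982 ± 173 for P3 (SD, n = 3). Library 3 of E13.5 was the lowest of its stage for both Dnmt3b and Dnmt3c.

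**Figure D1:**
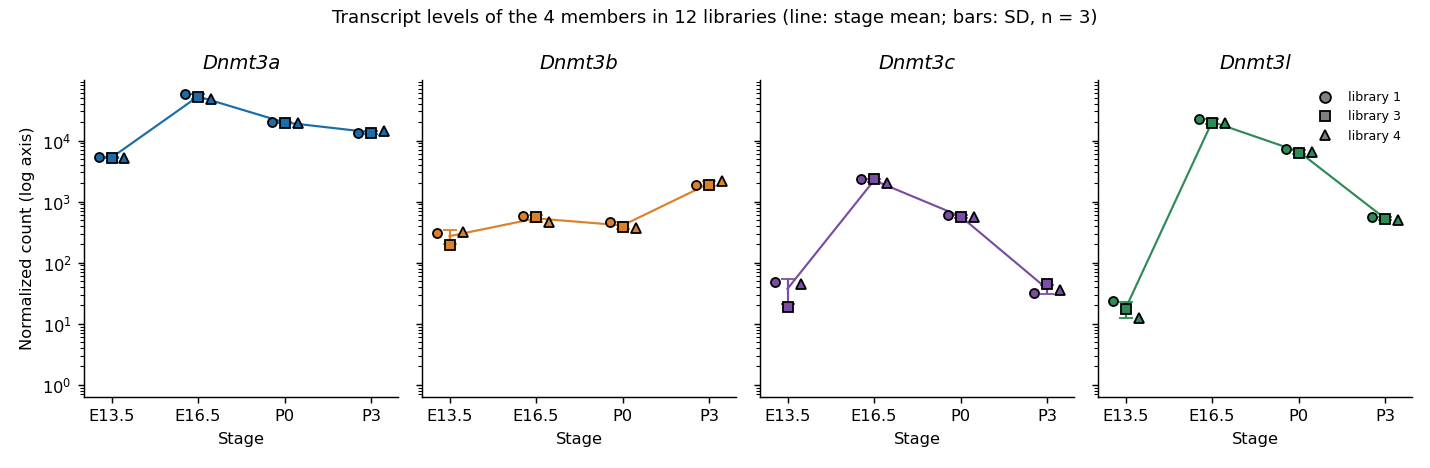
Normalized counts of Dnmt3a, Dnmt3b, Dnmt3c and Dnmt3l (vertical log axis) at E13.5, E16.5, P0 and P3, with 1 point per library, a line through the stage means and bars for the SD. Dnmt3a, Dnmt3c and Dnmt3l are highest at E16.5, while Dnmt3b is highest at P3 with 1865 to 2181.

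From E13.5 to E16.5 all 4 members rose, where 45.5% of all genes tested were called higher and 34.6% lower, and where 80.2% of genes had no overlap between the stages. Called means an adjusted p under 0.05 in limma, fitted on log2(normalized count + 1) over all 12 libraries with Benjamini-Hochberg adjustment over all genes tested. The log2 fold change was 10.12 for Dnmt3l (adjusted p = 1.91e-17 by limma, SE 0.150) and 5.97 for Dnmt3c (adjusted p = 2.52e-12 by limma, SE 0.265). It was 3.33 for Dnmt3a (adjusted p = 8.89e-16 by limma, SE 0.0710) and 0.99 for Dnmt3b (adjusted p = 3.78e-05 by limma, SE 0.166). The median over all genes was 0.31. Each of the 4 was higher in every E16.5 library than in any E13.5 library.

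Across birth, from E16.5 to P0, 3 of the 4 members fell, where 33.4% of all genes tested were called lower and 27.6% higher, and 69.5% had no overlap. Dnmt3c fell by 1.96 on the log2 scale (adjusted p = 7.55e-06 by limma, SE 0.265), Dnmt3l by 1.62 (adjusted p = 8.64e-08 by limma, SE 0.150) and Dnmt3a by 1.41 (adjusted p = 5.26e-11 by limma, SE 0.0710). With equal library totals these changes were -1.30, -0.96 and -0.75, against a median of all genes that itself moved by 0.69. The summed germ cell markers also fell short of their E16.5 range in the P0 libraries, although the markers did not move together. Dnd1 had a mean of 69580 normalized counts at E16.5 and 3892 at P0, and Ddx4, Mael and Tdrd1 were also lower at P0. Dazl was higher at P0, with 59230 against 35950. The part of the marker levels in the values of the family was not tested. Dnmt3b did not pass the test, at -0.38 on the log2 scale (adjusted p = 0.0561 by limma, SE 0.166), and its direction depends on the scaling, since it was 0.28 with equal library totals. Over 24 alternatives the adjusted p of Dnmt3b ranged from 0.0143 to 0.517. It passed, as lower at P0, without E13.5 library 3 or 4, without E16.5 library 4 and without P0 library 1, and over the 12 omissions of a single library the log2 fold change lay between -0.49 and -0.32.

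From P0 to P3 the family split. Dnmt3b rose 4.87-fold, or by 2.28 on the log2 scale (adjusted p = 1.97e-09 by limma, SE 0.166), where 40.1% of all genes tested were called higher. Dnmt3c fell by 3.92 on the log2 scale (adjusted p = 7.83e-10 by limma, SE 0.265), Dnmt3l by 3.65 (adjusted p = 1.72e-12 by limma, SE 0.150) and Dnmt3a by 0.54 (adjusted p = 3.09e-06 by limma, SE 0.0710), where 36.4% were called lower. None of the 4 overlapped between P0 and P3, as was the case for 81% of all genes tested. The directions of all 4 held with TMM, median-of-ratios, poscounts and equal-total scaling, under which the change of Dnmt3b lay between 1.44 and 2.31 and that of Dnmt3a between -1.38 and -0.51.

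The 2 comparisons that stay within a genotype tag gave these values. For P0 against E13.5 all 4 members were higher, where 45.7% of all genes tested were called higher and 40.5% lower. No member overlapped between these stages, nor did 88.1% of genes. The log2 fold change was 8.50 for Dnmt3l (limma adjusted p = 2.08e-16), 4.01 for Dnmt3c (limma adjusted p = 2.89e-10), 1.91 for Dnmt3a (limma adjusted p = 1.59e-13) and 0.61 for Dnmt3b (limma adjusted p = 0.00271). For P3 against E16.5, Dnmt3b was higher, by 1.90 (limma adjusted p = 2.65e-08), where 34.2% were called higher. In that comparison Dnmt3c was at -5.88 (limma adjusted p = 7.69e-12), Dnmt3l at -5.27 (limma adjusted p = 6.11e-14) and Dnmt3a at -1.95 (limma adjusted p = 7.24e-13), where 35.2% were called lower. None overlapped, as was true of 71.6% of genes. With equal library totals the change from E13.5 to P0 was 9.64 for Dnmt3l, 5.17 for Dnmt3c, 3.08 for Dnmt3a and 1.77 for Dnmt3b, and that of Dnmt3b was 0.38 without E13.5 library 3. Over 24 alternatives its adjusted p in this comparison lay between 2.14e-08 and 0.0226. Dnmt3b thus moved with the other 3 members in the first of these comparisons and against them in the second.

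The first and last stages, in both of which germ cells of the testis are known to divide, differed in 3 of the 4 members, where 39.2% of all genes tested were called higher at P3 and 31.2% lower. This comparison also crosses the genotype tag. Dnmt3l was higher at P3 by 4.85 on the log2 scale (limma adjusted p = 7.50e-14), Dnmt3b by 2.89 (limma adjusted p = 1.22e-10) and Dnmt3a by 1.37 (limma adjusted p = 3.28e-11). Dnmt3c differed by 0.09 (adjusted p = 0.771 by limma, SE 0.265), and its libraries overlapped, while 71.3% of genes had no overlap. Its direction was not stable, with -0.34 without E13.5 library 3, -0.034 without P3 library 3 and -0.014 by edgeR. The limma F-test over the 4 stages passed for all 4 members, with adjusted p of 2.27e-15 for Dnmt3a, 2.04e-10 for Dnmt3b, 1.11e-12 for Dnmt3c and 5.36e-17 for Dnmt3l, as for 95.2% of all genes tested.

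Levels of different members were compared per kilobase of annotated exon. On that scale the family total was 391.7 ± 26.7 normalized counts per kilobase for E13.5 (SD, n = 3), 11088.5 ± 937 for E16.5, 3742 ± 206 for P0 and 1400.2 ± 73.8 for P3. At E13.5 Dnmt3a made up 80.8% ± 4.22 of the total and Dnmt3b 13.49% ± 2.69, with Dnmt3c at 4.23% ± 1.67 and Dnmt3l at 1.51% ± 0.411. The family at this stage was thus mostly Dnmt3a transcript. At E16.5 Dnmt3l made up 61.4% ± 0.977, Dnmt3a 28.6% ± 0.526, Dnmt3c 9.06% ± 0.440 and Dnmt3b 0.938% ± 0.0777. P0 was again led by Dnmt3l, with Dnmt3l at 59.2% ± 1.03, Dnmt3a at 31.8% ± 1.17, Dnmt3c at 6.89% ± 0.0956 and Dnmt3b at 2.13% ± 0.176. At P3 Dnmt3a led again with 58.5% ± 0.525, now followed by Dnmt3b with 27.7% ± 0.935 and Dnmt3l with 12.6% ± 1.25, and Dnmt3c was the least with 1.1997% ± 0.237. The leading member was therefore Dnmt3a at E13.5 and P3 and Dnmt3l at E16.5 and P0. These shares depend on the lengths used. With the longest annotated transcript of each gene, Dnmt3a made up 85.9%, 30.7%, 33.9% and 64.8% at the 4 stages and Dnmt3b 21.1% at P3. Dnmt3l was then at 62.9% at E16.5 and 60.2% at P0, and the leading member was the same. Both settings divide Dnmt3a by a long length, 16642 or 9685 bases. Before division by length, Dnmt3a exceeded Dnmt3l at every stage, with 52805 against 20342 normalized counts at E16.5. A shorter Dnmt3a length would raise its share, and which of its transcripts these cells hold was not tested.

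**Figure D2:**
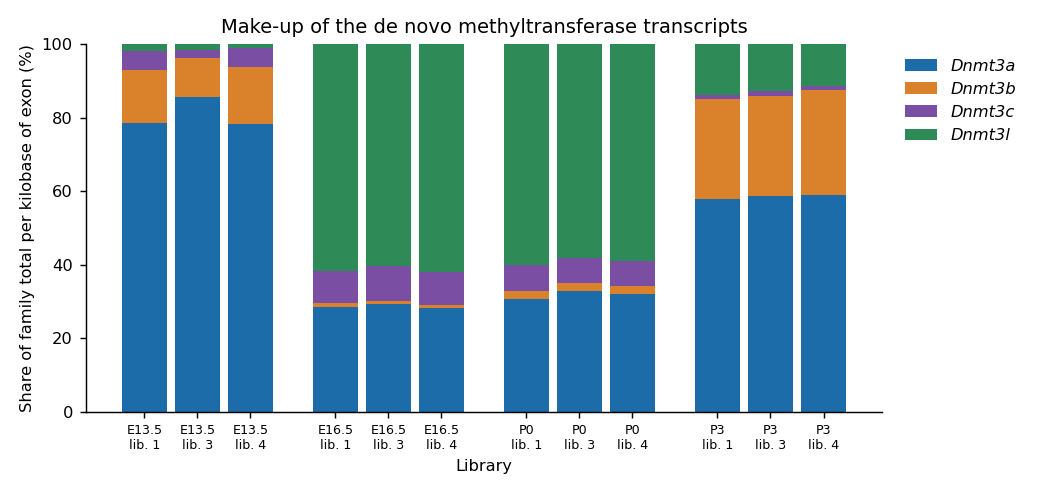
Share of each member in the family total per kilobase of exon (vertical axis, percent), with 1 stacked bar for each of the 12 libraries, grouped by stage. As means of 3 libraries, Dnmt3l makes up 61.4% at E16.5 and 59.2% at P0, and Dnmt3a 80.8% at E13.5 and 58.5% at P3.

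Ratios between members within a library, taken per kilobase of exon, do not depend on its size factor. The ratio of Dnmt3l to Dnmt3a was 0.0187 ± 0.00511 (SD, n = 3) for E13.5, 2.15 ± 0.0723 for E16.5, 1.86 ± 0.101 for P0 and 0.216 ± 0.0232 for P3. On this scale Dnmt3l transcript exceeded that of Dnmt3a at the 2 middle stages only, which depends on the lengths used. The ratio of Dnmt3a to Dnmt3b was 6.22 ± 1.72, 30.6 ± 1.95, 15.05 ± 1.65 and 2.11 ± 0.0630 at the same stages. Dnmt3a thus exceeded Dnmt3b in every library, most at E16.5 and least at P3. Between the copies on chromosome 2, the ratio of Dnmt3b to Dnmt3c was 3.45 ± 0.975 at E13.5 and 23.7 ± 4.63 at P3, whereas Dnmt3c exceeded Dnmt3b 9.69 ± 0.568 times at E16.5 and 3.25 ± 0.228 times at P0.

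Each of the 6 ratios differed among the 4 stages, where 95.2% of single genes did, and ratios of other gene pairs were not tested. The test was an exact permutation test of the F statistic of the log2 ratio of normalized counts, each with 1 added, over all 369600 assignments of the 12 libraries to 4 groups of 3, adjusted over the 6 ratios, since 3 libraries against 3 cannot give an exact p below 0.1. It gave p = 6.49e-05, the smallest these permutations can give, and an adjusted p of 7.79e-05 for 5 ratios. For Dnmt3c to Dnmt3l the exact permutation p was 0.000195, also after adjustment. The log2 ratio of Dnmt3b to Dnmt3c ran from 2.91 ± 0.364 at E13.5 through -2.07 ± 0.0829 and -0.50 ± 0.103 to 5.71 ± 0.296 at P3, and no 2 stages overlapped. That of Dnmt3c to Dnmt3l was 0.96 ± 0.842 at E13.5 and then -3.19 ± 0.0910, -3.53 ± 0.0319 and -3.80 ± 0.295, with an overlap of P0 and P3. The ratio between these 2 members was therefore not separable between P0 and P3. That of Dnmt3a to Dnmt3l went from 8.17 ± 0.381 to 1.38 ± 0.0489, 1.58 ± 0.0781 and 4.69 ± 0.156.

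**Figure D3:**
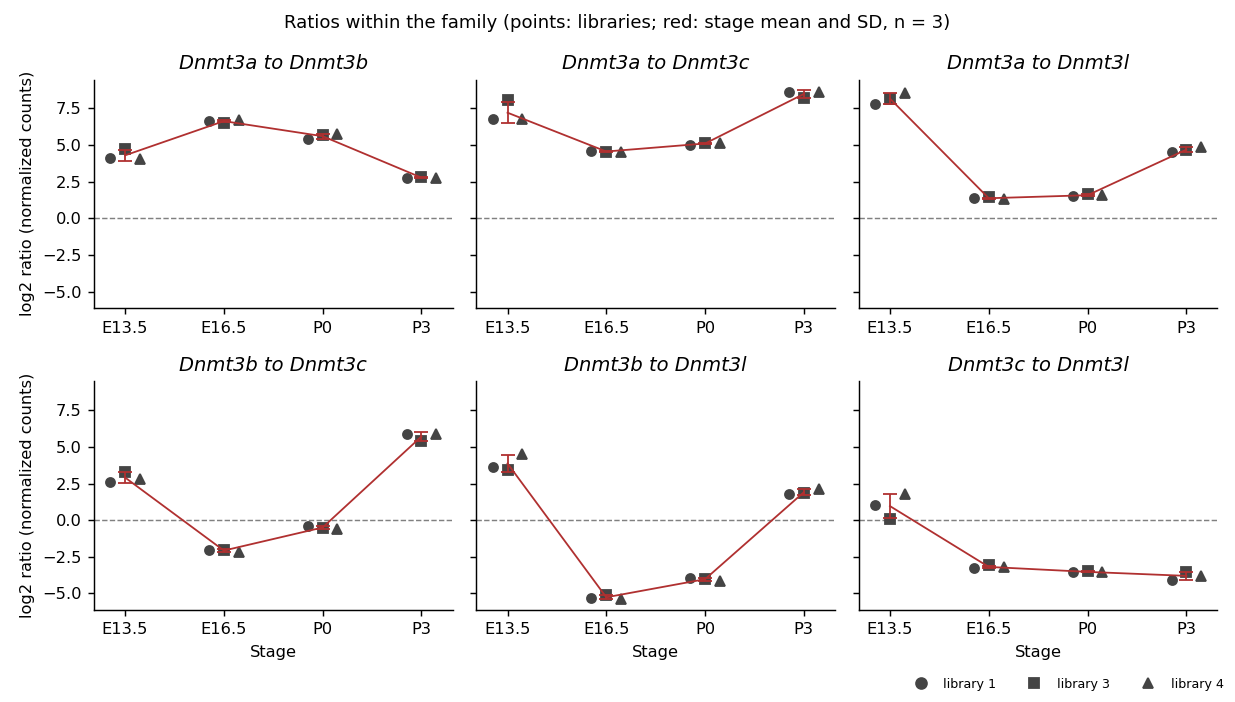
Log2 ratio of normalized counts, each with 1 added, for each of the 6 pairs of members (vertical axis) in each library at the 4 stages. The ratio of Dnmt3b to Dnmt3c crosses 0, from 2.91 at E13.5 to -2.07 at E16.5 and 5.71 at P3.

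Over the 12 libraries, Pearson correlations of log2(normalized count + 1) were 0.958 for Dnmt3a with Dnmt3l, 0.892 for Dnmt3a with Dnmt3c and 0.89 for Dnmt3c with Dnmt3l. Dnmt3b had 0.198 with Dnmt3a, 0.169 with Dnmt3l and -0.217 with Dnmt3c. They describe 4 stages with libraries that share their depth and scaling, and carry no test.

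For each member the 5 genes with the highest Pearson correlation over the 12 libraries were taken from 12134 genes with a mean of at least 100 normalized counts. For Dnmt3a these were Piwil4, a nuclear PIWI protein, Tcfl5, Otud7a, Ddx25, a germ cell RNA helicase, and Eepd1, with r of 0.998 to 0.997. Piwil4 had 513.8 ± 71.2 normalized counts (SD, n = 3) for E13.5, 32925 ± 4213 for E16.5, 5601 ± 465 for P0 and 3216 ± 252 for P3, a wider range than Dnmt3a. For Dnmt3l they were Xrra1, Ankef1, Stmn4, Tspan17 and Ldhc, the lactate dehydrogenase of germ cells, with r of 0.997 to 0.996, and for Dnmt3c they were Ccdc65, Bfsp2, Lct, Rab3gap2 and Prpf40b, with r of 0.994 to 0.990. Bfsp2, known from the lens, had 410.8 ± 63.7 normalized counts at E16.5 and 5.94 ± 1.09 at P3, and Lct, the lactase gene, had 674.2 ± 35.9 at E16.5 and 21.4 ± 1.89 at P3. For Dnmt3b they were Hcfc2, Stra8, Rimkla, M1ap and Pcgf5, a Polycomb subunit, with r of 0.990 to 0.984. Stra8, a retinoic acid target that marks entry into differentiation and meiosis, had 124.8 ± 25.8 normalized counts for E13.5, 436.3 ± 4.03 for E16.5, 290.4 ± 32.7 for P0 and 3937 ± 327 for P3. The choice of these genes depends on the measure, since ranking by Spearman correlation kept 0 of the 5 for Dnmt3a, Dnmt3b and Dnmt3l and 1 for Dnmt3c. A Pearson correlation above 0.95 was found for 475 genes with Dnmt3l (3.91%), 196 with Dnmt3a (1.62%), 135 with Dnmt3c (1.11%) and 87 with Dnmt3b (0.717%).

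The other genes of DNA methylation, a list of 26 that were all tested, did not move as 1 group with the family. From E13.5 to E16.5, 9 were called higher and 13 lower, where 45.5% of all genes tested were higher and 34.6% lower, with a median log2 fold change of -0.23 against 0.31 for all genes tested. All 5 genes by which piRNAs direct methylation rose with the family, among them Spocd1, from 11.7 ± 8.19 to 24685 ± 2125 normalized counts, and Morc1, from 1697 ± 115 to 31378 ± 2641 (SD, n = 3). Morc1 is also the gene named in the genotype tag, which reads Morc1 (-/-) at E16.5. How its transcript level relates to that tag was not tested. Of the 7 genes of histone methylation, 2 were called higher, 2 lower and 3 were not called. The calls of Nsd1, Nsd2, Nsd3 and Ash1l changed with the scaling. Kdm1b, a demethylase of H3K4, whose methylated form the DNMT3 enzymes do not bind, rose from 3999 ± 473 to 29057 ± 3097. Setd2, an H3K36 methyltransferase gene, fell from 1618 ± 91.4 to 457.6 ± 95.8. All 4 maintenance genes fell, including Dnmt1, from 12083 ± 717 to 4287 ± 698, and Uhrf1, which brings Dnmt1 to replicated DNA, from 7681 ± 468 to 1963 ± 97.8. Among the genes that remove methyl groups, the dioxygenase gene Tet1 fell from 5973 ± 144 to 345.9 ± 58.6 while Tet3 rose from 33.2 ± 10.1 to 566.3 ± 18.7. Both genes known to repress the family in germ cell precursors fell, Prdm14 from 3624 ± 52.3 to 254.9 ± 26.4 and Prdm1 from 4208 ± 266 to 771.6 ± 71.9. Among genes for the methyl donor, Mat1a rose from 31.1 ± 18.4 to 1510 ± 28.7 and Mat2a fell from 26450 ± 517 to 3142 ± 562.

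From E16.5 to P0, 16 of the 26 were called lower and 0 higher, where 33.4% of all genes tested were lower and 27.6% higher, with a median of -0.50 against -0.01 for all genes tested. That split depends on the scaling, since with equal library totals 5 were lower and 10 higher, where 14.8% and 54.9% of all genes were, and the directions of Dnmt1, Uhrf1, Kdm1b, Mat2a and Prdm14, among others, turned. All 5 piRNA-directed genes were lower at P0, although Spocd1 did not pass with TMM, median-of-ratios factors or equal library totals, nor Piwil2 with equal library totals. From P0 to P3, 12 were called higher and 10 lower, where 40.1% of all genes tested were higher and 36.4% lower, with a median of 0.14 against 0.05 for all genes. With equal library totals 7 were higher and 16 lower, where 19.7% and 58.4% of all genes were. Of the 5 piRNA-directed genes, 2 were higher, 2 lower and 1 was not called. Those called higher were Morc1 at 0.54 (adjusted p = 4.35e-06 by limma, SE 0.0729) and Tex15 at 0.34 (adjusted p = 0.000393 by limma, SE 0.0716), which did not pass with median-of-ratios factors and were at -0.30 and -0.50 with equal library totals. Piwil2 did not pass, at -0.037 (adjusted p = 0.729 by limma). All 4 maintenance genes rose with Dnmt3b, although Uhrf2 was at -0.048 with equal library totals. Uhrf1 rose to 31559 ± 2158 and Dnmt1 to 12286 ± 1254. The 7 genes of histone methylation divided, with 2 called higher, 2 lower and 3 not called. Kdm1b fell with Dnmt3a, Dnmt3c and Dnmt3l, to 7015 ± 438, as did Spocd1, to 774 ± 102, and Piwil4. Tet1 fell to 94.6 ± 32.9 and Prdm14 to 26.6 ± 13.54.

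**Figure D4:**
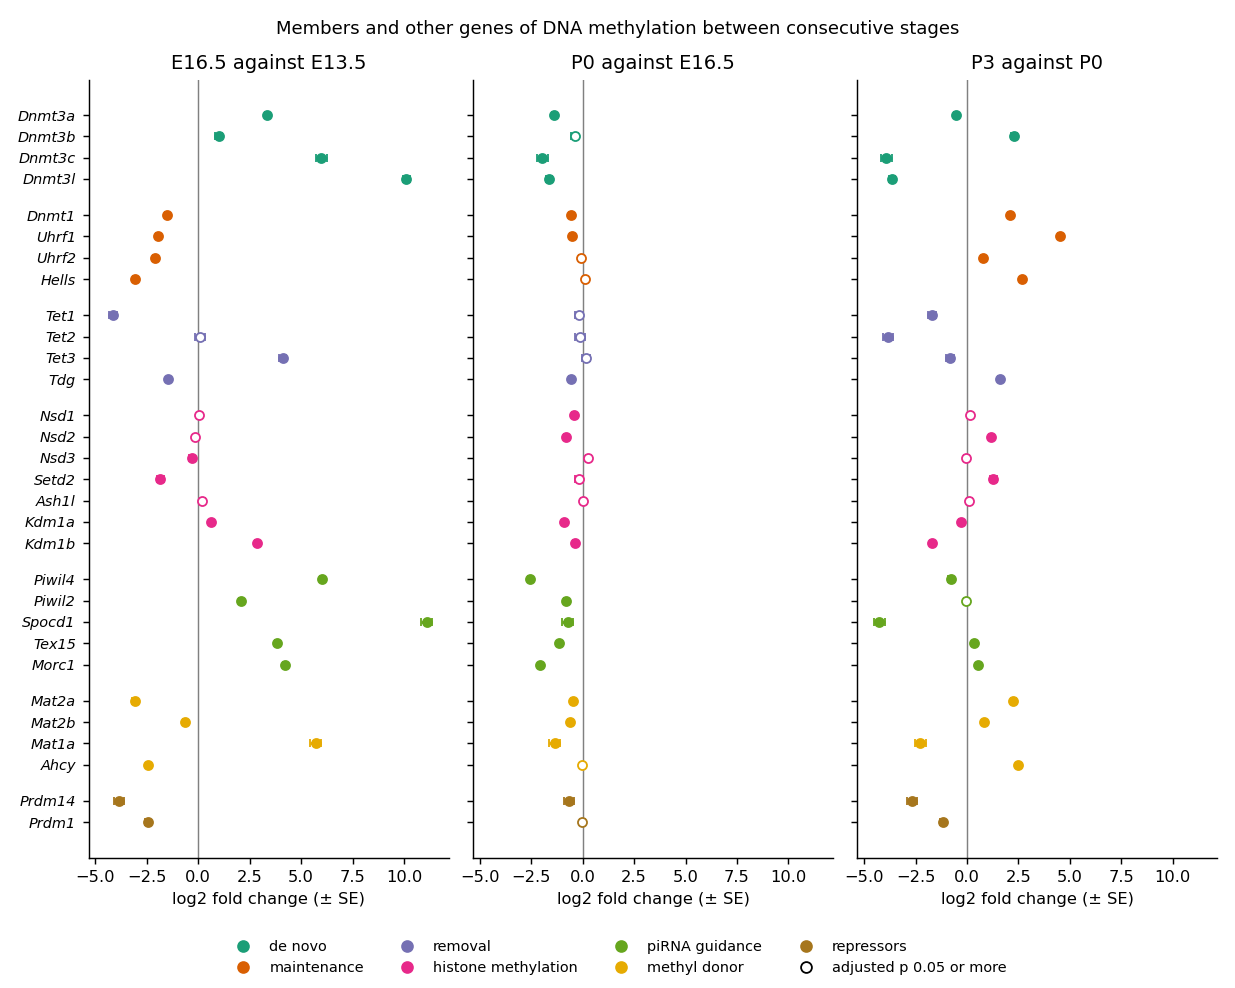
Log2 fold changes with their SE (horizontal axis) of the 4 members and the 26 other genes of DNA methylation (vertical axis, by role) in the 3 comparisons of consecutive stages, with open circles for an adjusted p of 0.05 or more. The 5 piRNA-directed genes lie above 0 for E16.5 against E13.5, and the 4 maintenance genes lie below 0 there and above 0 for P3 against P0, where Uhrf2 turned with equal library totals (-0.048).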

How the data were processed

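The authors deposited 1 table of 55487 genes by 12 libraries from total RNA, and this table alone was used. Per the labels' protocols the libraries were made with a kit for small RNA amounts (SMART-seq v4) and the TruSeq mRNA kit. The submitters' processing notes name bcl2fastq 2.20, cutadapt 1.18, HISAT2 2.1.0, featureCounts 1.5.2, DESeq2 1.26.0 and the builds mm10 and GRCm38. The deposited signal is the number of reads of a gene over the size factor of its library, and those read counts were recovered because, in each library, 100% of the values equalled whole numbers of 1 step within 0.001. Strand setting and treatment of reads that match several genes are not given in the sources used here. Columns are numbered 1, 3 and 4 but titles 1 to 3, so a column was given a stage and no sample, and 0 columns were left unused. Same-stage libraries differed beyond sampling noise, with a chi-square per gene of 5.749 to 21.2.

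The members, the list of 26 other genes and the tests were chosen with earlier results of these data known. The main test was limma 3.58.1 in R 4.3.3 (lmFit, eBayes with a trend) on log2(normalized count + 1), in 1 fit of all 12 libraries with 8 residual degrees of freedom, for genes at 10 normalized counts or more in 3 or more libraries. Benjamini-Hochberg adjustment ran over all 22384 genes tested, with a threshold of 0.05. Named genes were the members, the list, and for each member the 5 genes with the highest Pearson correlation among those averaging 100 or more, leaving out predicted-gene, clone and pseudogene names. Symbols matched 55141 identifiers (99.38%). Exon lengths came from GENCODE M21, coding sequences were aligned with MAFFT, and promoters came from RefSeq on GRCm38.p6, where Dnmt3c had no entry. Tried in place of these settings were factors by TMM, median of ratios and poscounts, totals made equal, a pseudocount of 0.1 or of 10, a filter of a mean of 100 or none, a fit of only the 2 stages compared, edgeR 4.0.16 and DESeq2 1.42.0 on recovered reads, leaving out each library and, added after seeing the data, the column number as a replicate block. The fits were also run on simulated counts in which a small set of genes changed, at P0 only. The size factors were known there, so that run does not bear on the choice of scaling. Other steps used Python 3.11.15, numpy 2.4.6, pandas 2.3.3, scipy 1.17.1, matplotlib 3.10.9 and biopython 1.88.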

Additional observations from a re-analysis of the deposited data

How the results depend on the processing

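Of 28 results on member levels, 26 kept their side of the threshold under every alternative run, and also their direction where 2 stages were compared. The F-tests over the 4 stages have no direction. The 6 ratios, tested without a direction, kept their side of the threshold in 90 of 90 alternatives. The first exception was Dnmt3b between E16.5 and P0, at -0.38 on the log2 scale. It passed with poscounts factors (-0.41), with a pseudocount of 10, a mean of at least 100, only the 2 stages compared, edgeR and DESeq2 (each -0.38), was reversed with equal library totals (0.28), and lay between -0.49 and -0.32 with a library left out. The second was Dnmt3c between E13.5 and P3, at 0.09, which was -0.014 with edgeR, -0.015 with DESeq2, and -0.34 to 0.33 with a library left out, -0.34 without E13.5 library 3 and -0.034 without P3 library 3. The other genes of DNA methylation called higher from E16.5 to P0 numbered 2 with TMM, 4 with median-of-ratios factors, 10 with equal library totals (with 5 lower) and 0 to 1 with a library left out. From P0 to P3 they were 7 higher and 16 lower with equal library totals. With the longest transcript as length, the share in the family total per kilobase at E13.5, E16.5, P0 and P3 was 85.9%, 30.7%, 33.9% and 64.8% for Dnmt3a and 9.90%, 0.693%, 1.56% and 21.1% for Dnmt3b. It was 2.63%, 5.66%, 4.28% and 0.773% for Dnmt3c, and 62.9% and 60.2% for Dnmt3l at E16.5 and P0. Of the 5 genes most like each member, Spearman correlation kept 0 for Dnmt3a, 0 for Dnmt3b, 1 for Dnmt3c and 0 for Dnmt3l, and equal library totals kept 3, 0, 3 and 1. With a mean of at least 100, fewer genes were tested and 11459 of all genes were called for E16.5 against E13.5 (17932 otherwise), 11249 for P3 against P0 (17122) and 11968 for P0 against E13.5 (19280). edgeR called 17851, 14370 and 17358 genes in the 3 consecutive comparisons, and limma 17932, 13658 and 17122. The cause of these shifts was not tested. A replicate block on the column numbers 1, 3 and 4, added after seeing the data, changed no call of a member, with Dnmt3b between E16.5 and P0 at an adjusted p of 0.0537 by limma. It called 17911, 13529 and 17028 genes in the consecutive comparisons. What the column numbers stand for is not given in the sources used here. Same-numbered libraries of different stages had deviations from their stage means that correlated at -0.036 to 0.042. The range was -0.072 to 0.053 for libraries with different numbers, and 2 of 12 libraries were closest to their own number. Depth limits the values of Dnmt3l at E13.5 and of Dnmt3c at E13.5 and P3, which rest on 12 to 46 reads per library.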

Other observations

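Antisense and pseudogene rows of the family were low in every library. The antisense gene Dnmt3aos, which shares 133 exon bases with Dnmt3a, reached at most 2.18 normalized counts in any library, and Dnmt3bos, which shares none with Dnmt3b, at most 19.4. The pseudogenes Dnmt3a-ps1 and Dnmt3l-ps1 reached at most 8.69 and 7.09. Aire, a transcription factor gene known from the thymus, lies on the other strand and shares 67 exon bases with Dnmt3l. It had 0 to 4.35 normalized counts at E13.5, 34.8 to 61.1 at E16.5, 78.2 to 115 at P0 and 13.2 to 30.4 at P3, so its highest stage was P0 while that of Dnmt3l was E16.5. Whether the counting used strand is not given in the sources used here, so reads from the shared bases of these genes cannot be told apart.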
